A study of Mus musculus with 12 samples.

Results

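The genes described here are 5 serpins that cells release or that handle newly made collagen: Serpina3n, Serpine2, Serpinf1, Serping1 and Serpinh1. They were chosen from measured values of these same hearts, so every difference between groups given for them is a description and carries no test. Each gene was read on its brightest probe set (a group of array probes summarised as 1 value) among those assigned to a single gene symbol. In this way 4 of the 5 were measured, out of 26989 genes in all and among 60 symbols that begin with Serpin. Serpine2 was not analysed here, because no probe set could be assigned to it.

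The hearts came from male C57BL/6J mice aged 10 weeks, taken 2 weeks after surgery. Wild-type mice and mice lacking ADAM12, a membrane-anchored metalloprotease, each had either a sham operation or transverse aortic constriction (TAC), in which a suture narrows the aortic arch and loads the left ventricle with pressure. That gave 4 groups of 3 hearts, with 1 array per heart: wild-type sham, wild-type TAC, knockout sham and knockout TAC. The labels give neither how the Adam12 gene was disrupted nor which part of the heart was taken.

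Serpins are proteins of a common fold, most of which trap a protease by offering it a loop that the protease cuts and stays bound to. Serpina3n is the mouse counterpart of human alpha-1-antichymotrypsin, an acute phase protein, and inhibits serine proteases such as granzyme B and leukocyte elastase. Serping1 is C1 inhibitor, which blocks the starting proteases of the complement and contact systems. Serpinf1 (pigment epithelium-derived factor) and Serpinh1 (Hsp47) inhibit no protease: the former is a secreted factor that restrains vessel growth, and the latter is a chaperone of the endoplasmic reticulum that holds procollagen while it folds. Serpine2, protease nexin-1, inhibits thrombin and plasminogen activators.

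Values are log2 signals, so a difference of 1 is a doubling, and levels are not compared between genes. A probe set is called dim where its mean lay below the median over all genes, which says how near to background it read. The array medians over all genes lay between 5.36 and 5.50, and the medians of the 23 background probe sets between 2.96 and 3.17. Heart muscle markers were bright on every array, with a mean over 7 genes of 16.95 to 17.26, while 5 hepatocyte markers averaged 4.49 to 4.87 and 8 T and NK cell markers 4.19 to 4.40. The mean of 6 atrial markers ranged from 8.08 to 11.43 between arrays, with ranges that overlapped in all groups. Adam12 itself was read on a probe set that it shares with another symbol and that was dim. On that probe set sham hearts gave 4.54 ± 0.07 (SD, n = 3) in wild type and 4.35 ± 0.04 in knockout, and TAC hearts 4.70 ± 0.12 and 4.33 ± 0.08. Each knockout array was below each wild-type array on it. These are whole-tissue measurements, so a change in the number of cells of a type and a change in RNA per cell cannot be told apart.

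The 250 bases ahead of the start site are shown for the 3 members listed in the RefSeq promoter table of the GRCm38.p6 assembly, because these members were higher together in the TAC hearts of knockout mice. Capitals mark CAGAC (the SMAD element, also in its reverse form GTCTG) and GGGCGG (the GC box). The sequences run 5′ to 3′ on the gene's own strand and end just before the start site. They lie at chr12:104406458-104406707 on the plus strand for Serpina3n, at chr11:75422624-75422873 on the minus strand for Serpinf1, and at chr7:99353240-99353489 on the minus strand for Serpinh1.
Serpina3n: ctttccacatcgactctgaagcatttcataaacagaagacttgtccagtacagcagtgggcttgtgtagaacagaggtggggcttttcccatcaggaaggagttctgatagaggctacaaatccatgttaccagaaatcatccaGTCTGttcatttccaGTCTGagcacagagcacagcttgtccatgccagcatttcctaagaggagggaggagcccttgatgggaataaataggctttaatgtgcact
Serpinf1: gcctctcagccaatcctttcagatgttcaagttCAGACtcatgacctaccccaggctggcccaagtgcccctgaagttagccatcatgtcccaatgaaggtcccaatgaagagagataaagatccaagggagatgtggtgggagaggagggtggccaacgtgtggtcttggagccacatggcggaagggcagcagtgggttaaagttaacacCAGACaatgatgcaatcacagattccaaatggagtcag
Serpinh1: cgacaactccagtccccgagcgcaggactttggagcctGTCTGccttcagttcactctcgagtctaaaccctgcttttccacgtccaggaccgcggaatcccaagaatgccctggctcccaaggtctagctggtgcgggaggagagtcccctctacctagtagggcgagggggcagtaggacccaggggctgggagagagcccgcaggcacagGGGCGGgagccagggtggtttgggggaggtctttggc

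Among 7 motifs searched on both strands, CAGAC was in 3 of the 3 promoters. It was also in 42.2% of all 32851 promoters of the table. In Serpina3n its reverse form lay at bases -106 to -102 and -91 to -87, counted back from the start site. In Serpinf1 it lay at -217 to -213 and -38 to -34, and in Serpinh1, in reverse form, at -212 to -208. The GC box was in the Serpinh1 promoter at -37 to -32 and in 32.7% of all promoters. The STAT motif TTCNNNGAA was in none of the 3 and in 7.02% of all promoters. None of the 3 held the heat shock element core GAANNTTC (6.69% of all promoters), the TATA box TATAAA (12.4%), the NF-kB core (1.21%) or the C/EBP palindrome TTGCGCAA (0.164%). The motifs do not overlap one another in these promoters. The GC content was 46.4% for Serpina3n, 51.6% for Serpinf1 and 63.6% for Serpinh1, against a median of 52.4% over the table.

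Serpina3n, an inhibitor of serine proteases, had the largest TAC differences of the 4. In wild-type hearts it read 9.16, 9.41 and 8.22 after sham surgery (8.93 ± 0.63, SD, n = 3) and 10.42, 11.09 and 9.92 after TAC (10.48 ± 0.58). Knockout hearts gave 9.34, 9.62 and 8.02 after sham surgery (8.996 ± 0.85) and 13.89, 14.37 and 12.22 after TAC (13.49 ± 1.13). All 3 knockout TAC hearts were above all 9 others, the wild-type TAC hearts were above both sham groups, and the sham groups overlapped.

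In wild-type hearts Serpina3n was higher after TAC by 1.55 ± 0.57 log2 (standard error of the limma fit), which is 2.93-fold, and the nearest arrays of the groups were 0.52 apart. The corresponding difference in knockout hearts was 4.50 ± 0.57, or 22.6-fold, with the nearest arrays 2.60 apart. After TAC, knockout exceeded wild type by 3.02 ± 0.57, or 8.10-fold, with a gap of 1.14. Between arrays of the same replicate number the TAC difference was 1.26, 1.68 and 1.70 in wild type and 4.55, 4.75 and 4.20 in knockout. The labels do not say what a number shares. Over all genes, deviations of same-numbered wild-type sham and TAC arrays from their group means correlated at 0.10, -0.02 and 0.19. These values do not settle whether the wild-type arrays are paired. After sham surgery the genotypes differed by 0.07 ± 0.57, less than the spread between arrays. The TAC difference was therefore larger in knockout hearts by 2.95 ± 0.81. When single arrays were left out it ranged from 1.19 to 1.83 in wild-type hearts and from 4.01 to 5.13 in knockout hearts, and the genotype difference after TAC ranged from 2.58 to 3.65.

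Serping1, the C1 inhibitor, read 13.75, 13.70 and 13.45 in wild-type sham hearts (13.63 ± 0.16) and 14.20, 14.31 and 13.38 in wild-type TAC hearts (13.97 ± 0.51). It read 13.76, 13.77 and 13.55 in knockout sham hearts (13.69 ± 0.12) and 14.96, 14.69 and 14.34 in knockout TAC hearts (14.66 ± 0.31). The knockout TAC arrays were the highest 3, by only 0.02 over the nearest wild-type TAC array. The wild-type TAC array numbered 3 was below every sham array.

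TAC hearts exceeded sham hearts in Serping1 by 0.33 ± 0.22 in wild type, with overlap, and by 0.97 ± 0.22 in knockout, which is 1.96-fold, without overlap. Knockout exceeded wild type by 0.70 ± 0.22 after TAC, or 1.62-fold, and by 0.06 ± 0.22 after sham surgery. The TAC difference was larger in knockout hearts by 0.63 ± 0.32. Without the wild-type TAC array numbered 3, the TAC difference in wild type was 0.62 and the genotype difference after TAC was 0.40. Without the one numbered 2, the wild-type TAC difference was 0.16.

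Serpinf1, pigment epithelium-derived factor, read 7.63, 7.36 and 7.36 in wild-type sham hearts (7.45 ± 0.15) and 8.31, 8.77 and 7.37 in wild-type TAC hearts (8.15 ± 0.71). In knockout hearts it read 7.81, 7.55 and 7.51 after sham surgery (7.63 ± 0.16) and 9.23, 9.08 and 8.92 after TAC (9.08 ± 0.16). The wild-type TAC array numbered 3 lay within the sham range for this gene, and the knockout TAC arrays were above all others.

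Serpinf1 was higher in TAC than in sham hearts by 0.70 ± 0.27 in wild type (1.62-fold, overlapping) and by 1.45 ± 0.27 in knockout (2.73-fold, apart by 1.10). After TAC, knockout was higher than wild type by 0.93 ± 0.27, or 1.90-fold, with a gap of 0.15 between the nearest arrays. After sham surgery the genotype difference was 0.18 ± 0.27, and the TAC difference was larger in knockout by 0.75 ± 0.38. Without the wild-type TAC array numbered 3, the wild-type TAC difference became 1.09 and the genotype difference after TAC 0.54. Without the one numbered 2 they were 0.39 and 1.24.

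Serpinh1, the collagen chaperone, had the smallest differences of the 4. It read 7.49, 7.45 and 7.31 in wild-type sham hearts (7.42 ± 0.10) and 8.17, 8.08 and 7.46 in wild-type TAC hearts (7.90 ± 0.38). It read 7.49, 7.56 and 7.48 in knockout sham hearts (7.51 ± 0.04) and 8.43, 8.33 and 8.11 in knockout TAC hearts (8.29 ± 0.16). The knockout TAC arrays were above both sham groups but overlapped with wild-type TAC, whose array numbered 3 was within the sham range.

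The TAC difference in Serpinh1 was 0.49 ± 0.16 in wild type, or 1.40-fold, and 0.78 ± 0.16 in knockout, or 1.72-fold. Knockout was above wild type by 0.39 ± 0.16 after TAC and by 0.10 ± 0.16 after sham surgery, and the TAC difference was larger in knockout by 0.29 ± 0.22. Leaving out the wild-type TAC array numbered 3 gave 0.71 for the wild-type TAC difference, 0.17 for the genotype difference after TAC and 0.07 for the difference between the TAC differences. Serpinh1 also has a dimmer probe set, on which wild-type means were 6.66 ± 0.31 after sham surgery and 6.90 ± 0.22 after TAC, and knockout means 6.82 ± 0.18 and 7.32 ± 0.18. The TAC differences there were 0.23 ± 0.17 in wild type and 0.50 ± 0.17 in knockout, of the same sign as on the brighter probe set.

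**Figure D1:**
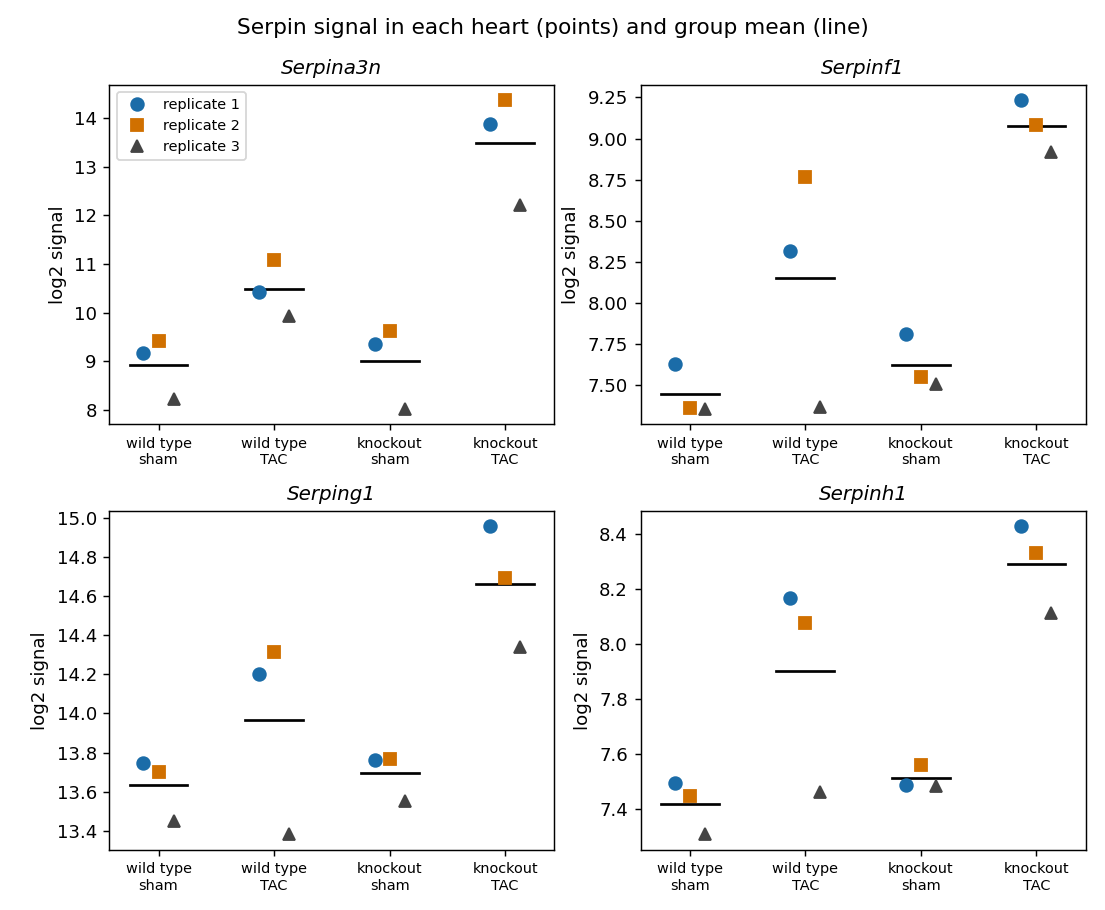
Log2 signal of the 4 measured serpins on each of the 12 arrays by group, with the group mean as a line. For Serpina3n the knockout TAC arrays, at 12.22 to 14.37, stand above the wild-type TAC arrays, at 9.92 to 11.09; for Serpinh1 the TAC groups overlap.

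All 4 members ordered the groups alike by mean: wild-type sham lowest, then knockout sham, wild-type TAC and knockout TAC. The sham groups overlapped for each of the 4. Knockout sham and wild-type TAC were apart for Serpina3n alone, by 1.48 between their means. Wild-type and knockout TAC were apart for Serpina3n, Serpinf1 and Serping1.

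Over all genes, every TAC array was above every sham array in wild-type hearts for 2436 genes, 9.03% of those measured, and 1 of the 4 members was among them. In knockout hearts that held for 15.4% of genes and for 4 of the 4 members. Knockout TAC arrays were all above the wild-type TAC arrays for 7.91% of genes and for 3 of the 4 members. The members were chosen on these comparisons, so nothing can be read from their counts.

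**Figure D2:**
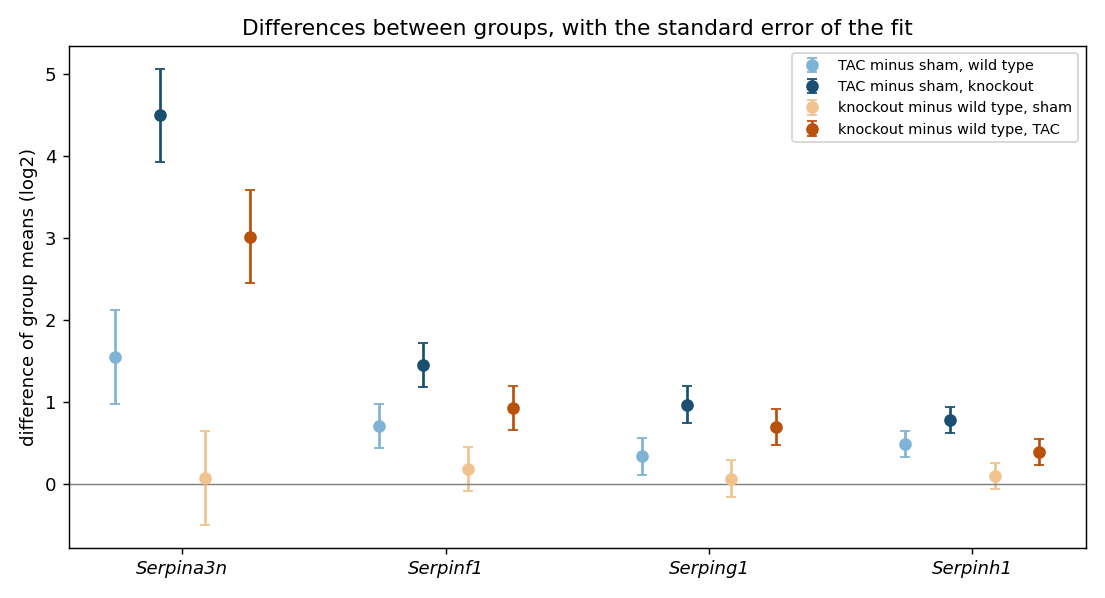
Differences of group means in log2 signal for the 4 measured serpins, with the standard error of the limma fit. The Serpina3n difference between TAC and sham is 1.55 in wild-type and 4.50 in knockout hearts, and its genotype difference after sham surgery is 0.07.

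In the same hearts, markers of other cell types also differed between groups, and their part in the serpin differences was not tested. Genes outside the members are said to rise or fall where limma called them at an adjusted p under 0.05. After TAC in knockout hearts 7.08% of all genes rose and 5.68% fell by that rule. Of 5 activated fibroblast markers, 5 rose after TAC in knockout hearts, with a median difference of 3.00. Their mean over the arrays of wild-type hearts was 7.39 to 7.45 after sham surgery and 7.92 to 9.48 after TAC, and over those of knockout hearts 7.38 to 7.48 and 9.88 to 10.30. The lowest wild-type TAC value, 7.92, was that of the array numbered 3, on which all 4 members were also lowest in that group. General fibroblast markers rose in 6 of 8 cases in knockout hearts, and 7 of the 8 had a positive difference. Their means were 11.28 to 11.40 after sham surgery and 12.13 to 12.45 after TAC there, and 11.26 to 11.46 and 11.44 to 12.10 in wild-type hearts. Macrophage markers rose in 5 of 6 cases, with means of 8.52 to 8.80 after sham surgery and 9.36 to 10.11 after TAC in knockout hearts, and of 8.65 to 8.91 and 8.98 to 9.31 in wild-type hearts. Both marker sets were thus highest in knockout TAC hearts, as the members were. Of 7 heart muscle markers, 3 fell in knockout hearts, and only 1 of the 7 had a positive difference. The mean of the 7 there was 17.24 to 17.26 after sham surgery and 16.95 to 17.08 after TAC. By limma 0 of 8 neutrophil markers were called in knockout hearts (1 at an unadjusted p under 0.05), with a median difference of 0.01. Their mean was 4.33 to 4.85 over the knockout TAC arrays. It was 4.41 to 4.59 over the wild-type sham arrays, which differ from those in genotype as well as surgery. Postn, a matrix protein of activated fibroblasts, averaged 11.82 ± 0.17 in sham and 14.37 ± 1.25 in TAC hearts of wild type, and 11.88 ± 0.12 and 16.46 ± 0.30 in those of knockout. Col1a1, a chain of the collagen that Serpinh1 helps to fold, averaged 9.87 ± 0.09, 11.19 ± 1.16, 9.85 ± 0.10 and 13.25 ± 0.26 in the same order.

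Genes outside the 4 members were tested with limma, and called where the p adjusted by Benjamini-Hochberg over the 26989 genes was under 0.05. In TAC hearts of knockout mice 7.08% of genes were higher than in their sham hearts and 5.68% were lower. The same test in wild-type hearts called 0.0667% higher and 0.111% lower. Between the genotypes 0.0111% (3 genes) were called after TAC and 0% after sham surgery, and 0% in the test of whether the TAC difference depended on genotype, where 1493 and 2962 genes had an unadjusted p under 0.05. Lists of genes around the serpins held 213 different genes, of which 180 were measured. Some genes are on 2 lists. In knockout hearts 56 of the 180 rose and 6 fell. By limma 0 of the 180 passed in each of the other 4 comparisons. Unadjusted p was under 0.05 for 37 of them for TAC in wild type, 10 for genotype after sham surgery, 65 for genotype after TAC and 46 for the dependence of the TAC difference on genotype. The TAC comparisons in the 2 genotypes share no arrays, while the genotype comparison after TAC uses the TAC arrays of both.

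The nearest relatives of Serpina3n are the other Serpina3 genes, which lie beside it in a cluster of close copies. Serpina3i rose after TAC in knockout hearts by 0.75 ± 0.14 (adjusted p = 0.00408, limma with Benjamini-Hochberg), from a dim mean of 4.68 ± 0.05 to 5.42 ± 0.34. In wild-type hearts its difference was 0.04 (adjusted p = 0.939 by limma). Serpina3e-ps, a pseudogene picked after its values were seen, rose by 1.08 in knockout hearts (adjusted p = 0.000734 by limma). Serpina3f and Serpina3d-ps differed by 0.38 each in knockout hearts and missed the threshold, with adjusted p = 0.078 and 0.0578 by limma. Serpina3a (-0.08), Serpina3b (0.08) and Serpina3l-ps (0.09) also missed it. Whether probes for these dim copies also read Serpina3n RNA was not tested.

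**Figure D3:**
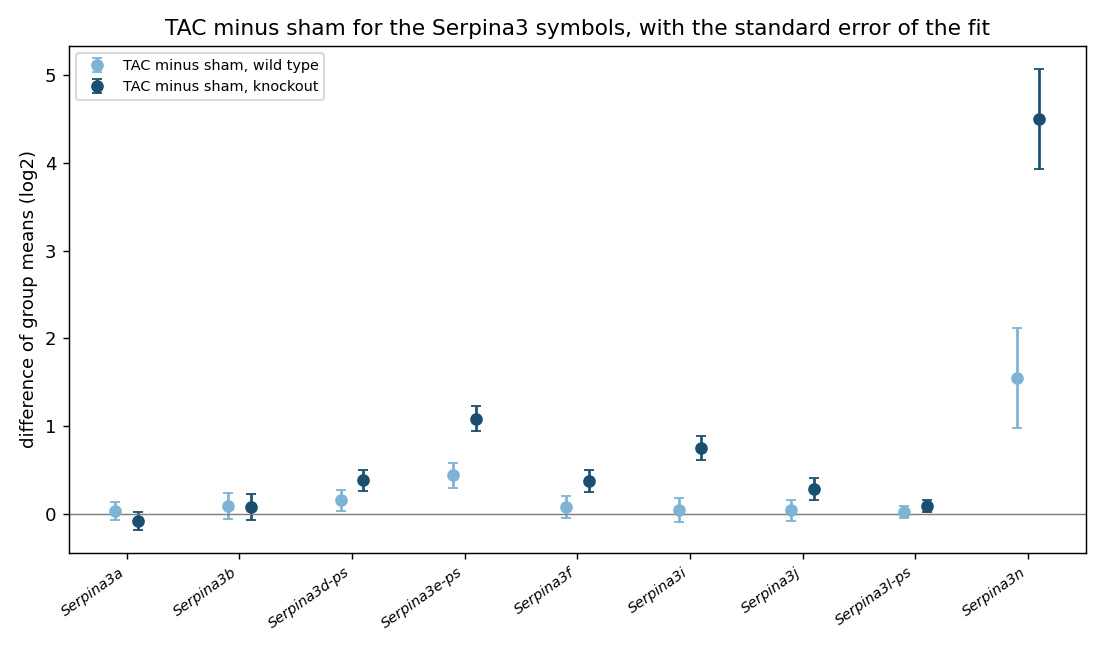
Difference in log2 signal between TAC and sham hearts for Serpina3n and the 8 other Serpina3 symbols measured, by genotype, with the standard error of the limma fit. The Serpina3n difference in knockout hearts is 4.50, and the next are 1.08 for Serpina3e-ps and 0.75 for Serpina3i.

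Other secreted serpins were mostly not called. Of 26 measured, 2 rose and 0 fell in knockout hearts, where 7.08% of all genes rose and 5.68% fell. The median difference of the list was -0.05, against -0.03 over all genes. All of the list apart from Serpini1 and Agt were dim. Besides Serpina3i, the gene called was Serpini1, neuroserpin. It rose by 0.31 ± 0.08 (adjusted p = 0.029 by limma) and lost the call under 8 of the alternative analyses. Agt, the serpin-fold precursor of angiotensin, differed by -0.36 in wild-type and -0.31 in knockout hearts and missed the threshold (adjusted p = 0.409 and 0.288 by limma).

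Clade B serpins, which stay inside the cell, had 6 of 27 members rise and 0 fall in knockout hearts, with a median difference of 0.06. Serpinb1c rose by 1.62 ± 0.17 (adjusted p = 0.000401) and Serpinb1a, an inhibitor of neutrophil proteases, by 1.41 ± 0.16 (adjusted p = 0.000446, both by limma). Serpinb1b (0.45) and Serpinb6a (0.37) rose less. Serpinb1b and Serpinb6a lost the call without the 4 arrays numbered 3, where 2 clade B genes were called in all, and 3 were called without knockout TAC replicate 2. The 3 Serpinb1 genes are close copies whose signals may not be separate. In wild-type hearts Serpinb1c differed by 0.75 ± 0.17 (adjusted p = 0.0975 by limma) and Serpinb1a by 0.40 (adjusted p = 0.322).

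Among proteases that the members inhibit, 3 of 18 rose in knockout hearts and 0 fell, with a median difference of -0.07. Plat, tissue plasminogen activator, is on the list as a target of Serpine2, the member not measured. It rose by 1.06 ± 0.15 (adjusted p = 0.00106 by limma). C1ra, a complement starting protease that Serping1 blocks, rose by 1.07 ± 0.23 (adjusted p = 0.00942 by limma), and its copy C1rb by 1.14 ± 0.26 (adjusted p = 0.0149). The C1rb call was lost without knockout TAC replicate 1 or 2 or knockout sham replicate 3. The proteases that Serpina3n is known to inhibit were picked out after their values were seen. Elane differed by -0.24 in knockout hearts, Ctsg by -0.05 and Gzmb by 0.14, and all 3 missed the threshold (adjusted p = 0.199, 0.837 and 0.714 by limma). All 3 were dim, at percentiles 5.5, 21.3 and 10.5 of mean signal over all genes, so the lack of a call says little about them.

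A list of receptors and binding partners of the members also held genes tied to thrombin, such as F2r. Of its 19 measured genes, 8 rose and 2 fell in knockout hearts, with a median difference of 0.38. Hspg2 (perlecan, a heparan sulfate proteoglycan of basement membranes) rose by 0.85 ± 0.10 (adjusted p = 0.000486 by limma). F2r, the thrombin receptor, rose by 1.25 ± 0.16 and Sdc3, a cell surface heparan sulfate proteoglycan, by 0.79 ± 0.12. Lrp1, the endocytic receptor that clears serpin and protease complexes, was picked after its values were seen and rose by 1.37 (adjusted p = 0.00186 by limma). Pnpla2, a triglyceride lipase also described as a receptor for the Serpinf1 product, fell by 1.68 ± 0.21 (adjusted p = 0.000625 by limma). In wild-type hearts Pnpla2 differed by -1.13 ± 0.21 (adjusted p = 0.068 by limma).

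Serpinh1 works beside the enzymes and carriers of collagen folding, of which 15 of 30 rose and 2 fell in knockout hearts, with a median difference of 0.44. Sparc, a secreted collagen-binding protein, rose by 1.68 ± 0.17 (adjusted p = 0.000389 by limma). Plod2, a collagen lysyl hydroxylase, rose by 0.97 ± 0.12, Kdelr3, a receptor that returns proteins to the endoplasmic reticulum, by 1.36 ± 0.19, and P4ha3, a prolyl hydroxylase subunit, by 0.88 ± 0.13. The genes that fell, named after their values were seen, were P3h4 (-0.43) and Canx (-0.24), whose calls were lost under 7 and 13 of the 22 alternatives. Without knockout TAC replicate 2 the list had 11 called genes in place of 17. Of 13 collagen chains, 10 rose in knockout hearts and 0 fell, with a median difference of 1.21, and Col3a1 rose by 3.81 ± 0.38 and Col4a2 by 2.04 ± 0.19 (adjusted p = 0.000389 for each by limma). The medians of these lists in wild-type hearts were 0.02 for collagen folding and 0.47 for collagens, against 0.02 over all genes.

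Complement genes, the system that Serping1 restrains, rose in 7 of 19 cases and fell in 1 in knockout hearts, with a median difference of 0.27. The list shares C1ra, which rose, and Masp1 and Masp2 with the proteases above, and Serpina5 with the other secreted serpins. C1qa, a chain of the recognition molecule of the classical pathway, rose by 1.14 ± 0.20 (adjusted p = 0.00334 by limma), C1qc by 0.86 ± 0.17 and C3ar1, the C3a receptor, by 1.12 ± 0.23. Cd59a, which blocks the terminal complex, fell by 0.51 ± 0.10 (adjusted p = 0.0075 by limma). That call was lost without the 4 arrays numbered 3. Cd55 and Cd46, other membrane regulators of complement, were picked after their values were seen. Cd55 rose by 1.00 (adjusted p = 0.00947 by limma), and Cd46 differed by -0.36 and missed the threshold (adjusted p = 0.0624).

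Acute phase and IL-6 family genes, with which Serpina3n is usually grouped, rose in 6 of 32 cases and fell in 1 in knockout hearts, with a median difference of 0.09. Timp1, a metalloprotease inhibitor, rose by 3.11 ± 0.35 and Il6 by 1.40 ± 0.16 (adjusted p = 0.000446 for each by limma), the latter from 3.67 to 5.07. Il1r1 rose by 1.09 ± 0.16, Osmr, the oncostatin M receptor, by 0.95 ± 0.20. Stat3 and Lifr were picked after their values were seen: Stat3 rose by 0.38 and Lifr fell by 0.62, with calls lost under 4 and 7 of the alternatives. With knockout TAC replicate 2, knockout sham replicate 1 or knockout sham replicate 3 left out, 4 of the list were called in place of 7.

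In the direct comparison of knockout with wild-type TAC hearts the listed genes with the smallest p missed the threshold. Timp1 was higher in knockout by 2.23 ± 0.35, Il6 by 0.92 ± 0.16, Serpinb1a by 0.84 ± 0.16, Hspg2 by 0.64 ± 0.10, Kdelr3 by 1.01 ± 0.19 and Col3a1 by 2.21 ± 0.38 (adjusted p = 0.0592 for each by limma). Serpina3i differed by 0.59 (adjusted p = 0.076 by limma). The number of listed genes called here depended on the analysis: it was 31 with the replicate number as a block, 25 with dim genes left out and 32 without wild-type TAC replicate 2. The dependence of the TAC difference on genotype reached an adjusted p of 0.259 at the smallest in these lists by limma.

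**Figure D4:**
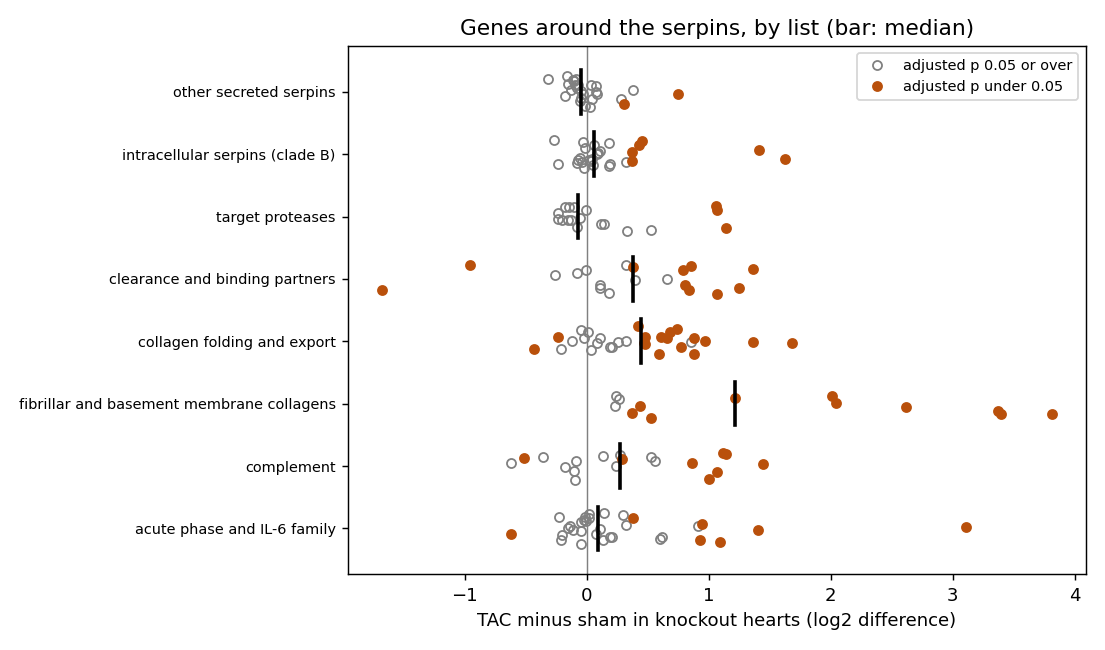
Differences in log2 signal between TAC and sham hearts of knockout mice for the genes of the 8 lists. The collagen list has 10 of 13 genes called, all higher, and the other secreted serpins 2 of 26. Over all genes 7.08% were called higher and 5.68% lower.

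Profiles over the 12 arrays were also compared, as the root mean square difference between log2 profiles centred on each gene. This is a description of likeness over arrays that share their groups. The profiles closest to Serpina3n, whose own root mean square deviation was 1.97, were Fn1 (fibronectin) at 0.55, Col3a1 at 0.62, Ltbp2 at 0.65 and Postn at 0.73. Closest to Serping1, whose own deviation was 0.48, were C1ra at 0.07, Mxra8 at 0.10, C1rb at 0.10 and Ccdc80 at 0.10. For Serpinf1, with a deviation of 0.71, they were Pmepa1 at 0.13, Itga11 at 0.14, Pdgfrl at 0.14 and Nkd2 at 0.15. For Serpinh1, with 0.39, they were Niban2 at 0.09, Praf2 at 0.10, Sertad4 at 0.10 and Prkcd at 0.10.

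Among the members, Serping1 and Serpinh1 had the most similar profiles, at 0.15. Serpinf1 was 0.27 from Serping1 and 0.35 from Serpinh1. Serpina3n was far from the other members on this scale, at 1.36 to 1.63, because the measure counts the size of a difference as well as its direction.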

How the data were processed

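Each of the 12 arrays measured heart RNA from 1 mouse, with 250 ng of total RNA labelled. The authors deposited 1 table of log2 values per probe set, made with Affymetrix Expression Console per the submitters' processing notes. Its version, the normalization and the genome build are not given in the sources used here. Of 58795 probe sets other than 6732 controls, 27268 had 1 gene symbol, 1932 several and 29595 none in the platform annotation. Symbols were updated by gene ID for 757. The brightest single-symbol probe set stood for each of 26989 genes, 198 of which had more than 1, and no filter on dim genes was applied.

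A mean per group was fitted to all 12 arrays in limma 3.58.1 (R 4.3.3) with empirical Bayes variances, tested on simulated data first. The lists, the rule for named genes (all members, then up to 4 called genes per list and comparison by p, or 2 where none was called, with others marked where they appear) and the members were chosen with earlier results of these data known. Groups are called apart where no array of one lies among those of the other. Alternatives were array weights, median centring, quantile normalization, all probe sets, the mean of a gene's probe sets, dim genes left out, the compared groups alone, trended robust variances, a replicate block and leaving out each array. Same-numbered knockout sham and TAC arrays correlated at 0.25, 0.14 and 0.17. Of the groups compared, they alone met a rule for pairing that asks for all 3 pairs over 0.1. The rule rests on the values and does not show that arrays were paired by design. The labels do not say what a number shares. They call the 3 arrays of a group biological replicates. Their number limits the precision, and intensity values carry no read depth. Promoters came from the RefSeq table, with 3 of the 4 measured members matched.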

Additional observations from a re-analysis of the deposited data

Results flagged for a closer look

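Masp2, a complement-activating protease that Serping1 inhibits, was picked up because the TAC and sham arrays were apart in opposite directions in the 2 genotypes. Its mean was 4.13 ± 0.04 (SD, n = 3) in wild-type sham and 4.20 ± 0.04 in wild-type TAC, and 4.29 ± 0.07 in knockout sham and 4.11 ± 0.05 in knockout TAC. The probe set was dim, and the TAC difference was only 0.07 in wild type and -0.18 in knockout. The TAC difference in knockout minus that in wild type was -0.24 (adjusted p = 0.362, limma with Benjamini-Hochberg), so the difference did not pass the test.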

How the results depend on the processing

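Of 1535 pairs of a result and an alternative (73 results, 22 alternatives), 1417 were labelled the same and 0 reversed. For a count of called genes, the same means an equal or similar count, not the same genes. For a named gene outside the members it means that the call was kept. The member differences carry no test, and their label rests on the size of the difference. The cause of the changes below was not tested. For genotype after TAC (3 genes called), the count was 0 over all probe sets, 1 after median centring, 616 without dim genes, 0 with only the compared groups, 1 after quantile normalization, 593 with the replicate block, 30 with trended robust variances and 0 to 774 with single arrays left out. Of listed genes (0 called there), 25 were called without dim genes, 31 with the block, 2 with trended robust variances and 0 to 32 with single arrays left out. For TAC in wild type (48 genes, 0 listed), array weights gave 352 and 9 listed, leaving out dim genes 211 and 4, the compared groups alone 0 genes, the replicate block 266 and 5, and quantile normalization 2 listed. Single arrays left out gave 0 to 264 and 0 to 10 listed, the highest of both without wild-type TAC replicate 3. For TAC in knockout (3444 genes), single arrays left out gave 2098 to 3688 genes, other secreted serpins 1 to 2, clade B 3 to 6, collagen folding 11 to 18 and acute phase 4 to 8. Other secreted serpins were 1 over all probe sets and 1 without dim genes. The dependence of the TAC difference on genotype ranged over 0 to 151 genes and 0 to 13 listed, and genotype after sham over 0 to 1. Serpinf1 ranged over 0.39 to 1.09 for TAC in wild type and 0.54 to 1.24 for genotype after TAC, and Serpinh1 over 0.35 to 0.71 and 0.17 to 0.52. Using only the compared groups gives no value for the dependence on genotype.

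Leaving out the 4 arrays numbered 3 together was added after the data were seen. It gave 1781 genes for TAC in knockout, with 1 other secreted serpin and 2 clade B genes, and 0 for TAC in wild type. The Serpina3n differences were then 1.47 for TAC in wild type, 4.65 for TAC in knockout and 3.38 for genotype after TAC. Of 35 genes checked for TAC in knockout (up to 4 called per list, and Serpina3e-ps, Lrp1, P3h4, Canx, Stat3 and Lifr), 26 kept their call in every alternative that tested them. The exceptions were Serpini1, Serpinb1b, Serpinb6a, C1rb, Cd59a, P3h4, Canx, Stat3 and Lifr.

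Deviations of same-numbered arrays correlated at -0.07 to 0.31 over genes (18 pairs, median 0.12, 10 over 0.1), against a median of -0.06 for arrays of different numbers (36 pairs, 5 over 0.1). Of 12 arrays 9 correlated best with their own number, a hint from the data and not from the design. For knockout sham and TAC arrays each of the 3 pairs was over 0.1 (0.25, 0.14 and 0.17), which meets the rule for pairing. The other comparisons did not meet it. Same-numbered wild-type sham and TAC arrays correlated at 0.10, -0.02 and 0.19. Between genotypes the values were 0.21, 0.08 and 0.09 for TAC arrays and 0.06, -0.07 and 0.18 for sham arrays. With the replicate block 3868 genes and 67 listed genes were called for TAC in knockout, against 3444 and 62 without. The differences in means of the 4 members are the same with the replicate block. Signal over background limits the dim genes named, such as Il6 and the Serpina3 copies.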

Other observations

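All 4 measured serpins were lowest on the array numbered 3 in each of the 4 groups. That held for 625 of 26989 genes, or 2.32%, against 5.51% for arrays numbered 1 and 1.46% for those numbered 2. Of the collagen folding list 9 of 30 genes had this pattern, among them Sparc, Kdelr3 and Ppib, and of the collagens 4 of 13, which were Col1a1, Col1a2, Col3a1 and Col5a2. It also held for 5 of 8 fibroblast markers and 3 of 6 macrophage markers, and for C1ra and C1rb. It held for 0 of 26 other secreted serpins, 0 of 27 clade B serpins and 0 of 7 heart muscle markers. With a share of 2.32% over all genes and lists this small, counts of 0 say little. The pattern was noticed in these data, and the genes in it were not tested.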
